A study of Mus musculus with 8 samples.

Results

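Protocadherin genes are described here across brain RNA of 8 samples, 1 array each. They were taken as the genes whose array annotation symbol starts with Pcdh, 31 of 19505 named genes, each with 1 row of the 22206 rows of the table. Of these, 20 belonged to the clustered beta class and 11 to the non-clustered class, of which 4 were delta1, 5 were delta2 and 2 (Pcdh12 and Pcdh20) were listed as other. No row was named as an alpha or gamma protocadherin, so those clusters, as well as Pcdhb21, Pcdhb22 and Pcdh15, were not analysed here. The mice were outbred ICR males bought at 8 weeks of age and used after a further week, and all of them drank either plain water or water with rosemary extract (RE) for 7 days. RNA came from tissue labelled as limbic system in one field and as hippocampus in another, and was hybridised to Clariom S arrays. The stressor was the tail suspension test (TST): a mouse hangs by its tail and the time it spends immobile is scored. There were 4 groups of 2 arrays: water with TST, low-dose RE (10 mg/kg) with TST, high-dose RE with TST, and water without TST. For the high dose the titles give 100 mg/kg and the source names 50 mg/kg. A label field names water with TST the negative and water without TST the positive control, and the groups here follow the titles. The labels assign 7 mice to a group and do not say whether the RNA samples were separate mice or pools, so a p-value reflects only how far these samples differ, and that spread may be technical.

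Protocadherins are cell-surface adhesion proteins of the cadherin superfamily and are found mostly in neurons. The clustered genes lie in tandem, and each neuron transcribes its own combination of them through promoter choice that involves CTCF and cohesin, which gives neurites of one cell an identity by which they avoid each other. The non-clustered delta protocadherins are expressed in regional patterns, mediate weak homophilic adhesion and take part in axon growth and in the making and loss of synapses, in the hippocampus among other places.

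**Figure D1:**
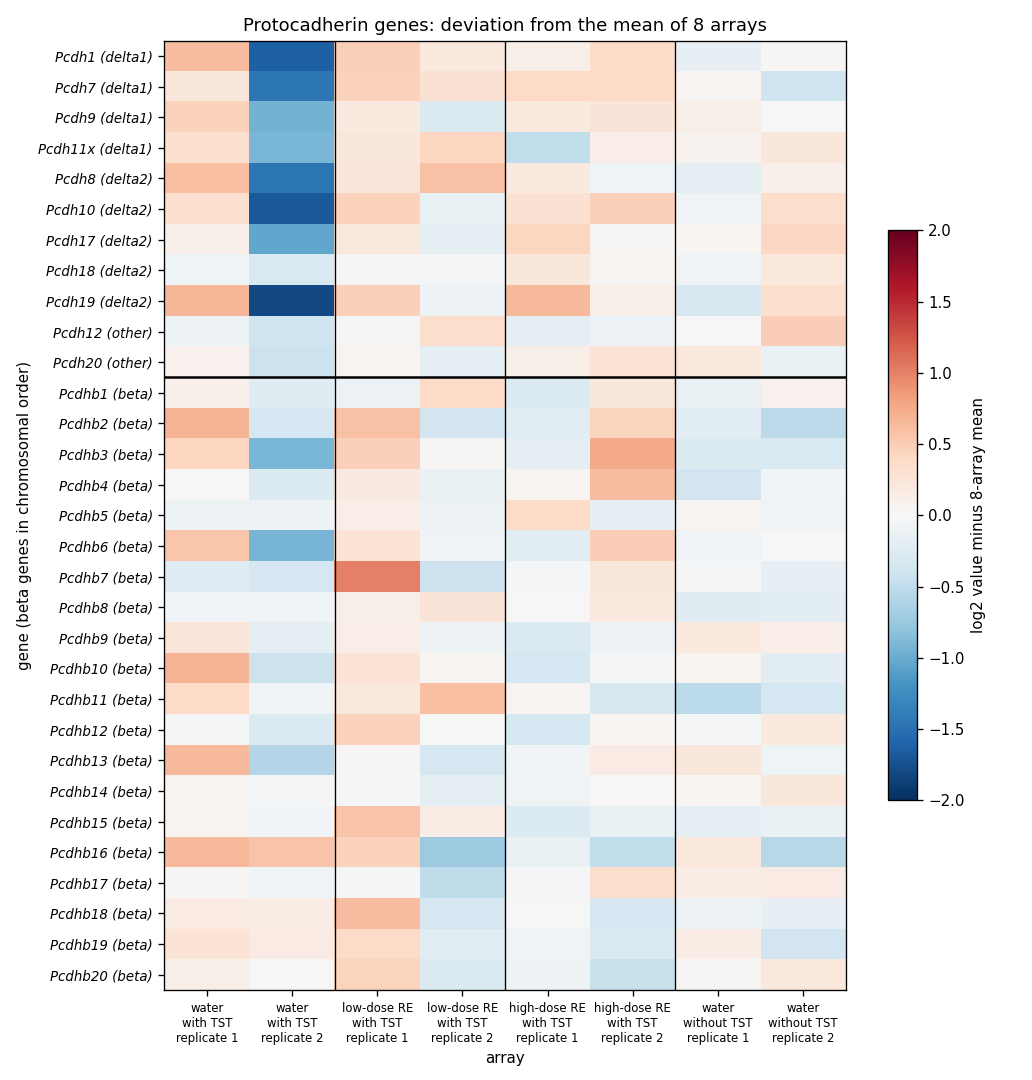
Each cell shows the deviation of 1 gene (vertical axis, beta genes in chromosomal order below the line) on 1 array (horizontal axis) from that gene's mean over the 8 arrays, in log2 units on the colour scale. All 11 non-clustered genes are lowest on water with TST replicate 2, while beta genes are low and high on several arrays.

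The arrays differed in markers of brain regions, and 1 array stood apart. Water with TST replicate 2 correlated with the other arrays at 0.967 to 0.978 over all rows, and the other 7 correlated with each other at 0.983 to 0.993. The 10 measured genes of an 11-gene cerebellar granule cell list lay on average 4.34 log2 units above their 8-array mean on that array, where 10 of 10 were highest. They lay 2.44 above it on water without TST replicate 1, and between 1.41 and 0.55 below it (-1.41 to -0.55) on the other 6 arrays. The 4 measured Purkinje cell genes followed with 4.57 and 2.50 on the same pair of arrays. Gabra6, a GABA receptor subunit of granule cells, read 5.40 and 16.37 in water with TST, 5.48 and 4.69 with low-dose RE, 7.64 and 5.14 with high-dose RE, and 14.31 and 8.42 in water without TST. The 7 measured forebrain excitatory genes lay on average 1.97 lower than their mean (-1.97) on water with TST replicate 2, and within -0.337 to 0.637 elsewhere. On that array 6 of 7 were lowest, and 1, Neurod2, was highest, at 9.38. Nrgn, a calmodulin-binding protein of forebrain excitatory neurons, read 15.37 and 10.54 in water with TST, 15.23 and 14.58 with low-dose RE, 14.46 and 15.02 with high-dose RE, and 14.11 and 14.13 in water without TST, above the median of all values (7.47) on every array. Other lists differed as well. On water with TST replicate 2 the mean deviations were -1.999 for 6 choroid plexus genes (6 of 6 lowest there), -1.47 for 6 thalamic genes (5 of 6 lowest), -1.16 for 7 striatal genes (5 of 7 lowest) and -0.996 for 6 microglial genes (4 of 6 lowest). Striatal genes stood at 1.89 on water without TST replicate 2, where 7 of 7 were highest. The part of these marker differences in the protocadherin results was not tested.

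**Figure D2:**
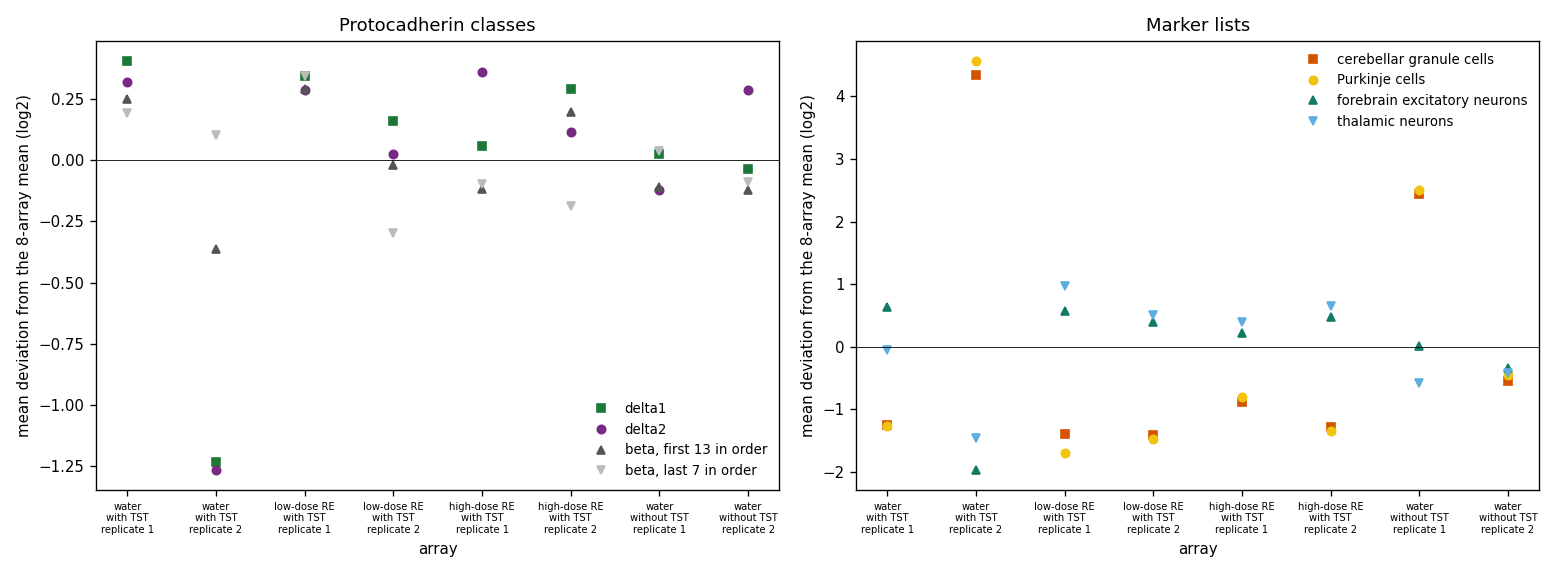
The vertical axes give the mean deviation of a gene list from its genes' 8-array means in log2 units, for protocadherin classes on the left and for marker lists on the right, on each array (horizontal axis). On water with TST replicate 2 the delta1 and delta2 means are -1.23 and -1.26, the cerebellar lists are at 4.34 and 4.57, and the forebrain excitatory list is at -1.97.

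The delta2 genes are introduced by their promoters, since 4 of these 5 genes differed by more than 1 log2 unit between the arrays of water with TST and all 5 were lowest on one array. This was not particular to delta2, as all 4 delta1 genes differed by more than 1 there and were lowest on the same array. The choice was thus made from the values. The sequences are the 250 bases before the start of each gene in RefSeq (GRCm38.p6), read 5′ to 3′ on the strand of the gene. They lie at chr14:79771313-79771562 (minus strand), chr3:45378148-45378397 (plus strand), chr14:84443313-84443562 (plus strand), chr3:49757317-49757566 (minus strand) and chrX:133688994-133689243 (minus strand). Capitals mark matches, on either strand, to 4 motifs whose letters are given after the sequences, and matches to different motifs do not overlap.
Pcdh8: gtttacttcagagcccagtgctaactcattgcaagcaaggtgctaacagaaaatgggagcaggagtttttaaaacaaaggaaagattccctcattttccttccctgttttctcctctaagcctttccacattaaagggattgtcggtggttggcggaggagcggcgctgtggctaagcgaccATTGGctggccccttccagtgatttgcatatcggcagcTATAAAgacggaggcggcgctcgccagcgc
Pcdh10: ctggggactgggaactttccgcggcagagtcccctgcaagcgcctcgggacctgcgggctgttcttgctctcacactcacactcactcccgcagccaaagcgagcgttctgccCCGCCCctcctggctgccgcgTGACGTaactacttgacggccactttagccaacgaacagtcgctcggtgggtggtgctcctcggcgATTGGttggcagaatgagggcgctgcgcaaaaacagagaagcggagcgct
Pcdh17: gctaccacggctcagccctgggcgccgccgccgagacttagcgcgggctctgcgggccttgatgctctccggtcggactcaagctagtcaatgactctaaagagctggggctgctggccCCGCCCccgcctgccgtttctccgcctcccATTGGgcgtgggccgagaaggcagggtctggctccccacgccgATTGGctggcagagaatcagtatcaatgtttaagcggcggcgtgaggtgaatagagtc
Pcdh18: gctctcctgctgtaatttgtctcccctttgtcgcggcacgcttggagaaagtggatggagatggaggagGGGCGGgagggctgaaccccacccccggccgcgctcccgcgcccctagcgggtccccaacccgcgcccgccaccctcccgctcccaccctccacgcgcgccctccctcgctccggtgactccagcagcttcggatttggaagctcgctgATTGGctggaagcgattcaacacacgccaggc
Pcdh19: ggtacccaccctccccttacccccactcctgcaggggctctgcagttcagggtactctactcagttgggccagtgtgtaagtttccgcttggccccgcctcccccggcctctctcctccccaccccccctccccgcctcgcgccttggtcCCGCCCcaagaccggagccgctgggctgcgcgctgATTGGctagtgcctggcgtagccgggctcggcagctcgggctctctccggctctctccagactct
The letters CCAAT were found on one strand or the other in 5 of 5 delta2 promoters and in 7 of the 8 non-clustered genes with a promoter in the table, against 33.8% of 32851 promoters of the same length. The GC box, GGGCGG, was found in 4 of 5 delta2 promoters, all but that of Pcdh8, and in 4 of the 8 non-clustered genes, against 32.7% of promoters. The TATA box, TATAAA, was found only in Pcdh8, 30 bases before the start (-30), and in 12.4% of promoters. TGACGT, the core of the cAMP response element, was found among the 8 only in Pcdh10, at -116, and in 6.47% of promoters. The promoters of Pcdh18, Pcdh10 and Pcdh17 held 23, 22 and 21 CpG dinucleotides, that of Pcdh19 held 16 and that of Pcdh8 held 11. The median over all promoters was 6, and 16.3% of them held 21 or more. Pcdh8 was also the poorest of the 5 in GC, at 51.2%, while Pcdh19 had 69.2%, and the median promoter had 52.4%. These matches describe the letters in this window only.

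Values below are the deposited log2 values, and a difference is between means of log2 values with its standard error (SE) from the fit of all rows. Pcdh19, whose human counterpart is mutated in an X-linked epilepsy, read 10.43 and 7.96 in water with TST, 10.25 and 9.66 with low-dose RE, 10.41 and 9.88 with high-dose RE, and 9.45 and 10.11 in water without TST. It had the widest range of the 31 genes, 2.47, and without its lowest array the other 7 spanned 0.98. The lowest array was water with TST replicate 2 and the highest was the other array of the same group.

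Pcdh10, which in mouse neurons links activity to synapse elimination, read 11.86 and 9.86 in water with TST, 12.00 and 11.41 with low-dose RE, 11.85 and 12.02 with high-dose RE, and 11.47 and 11.90 in water without TST. Its mean in water with TST was 10.86 ± 1.41 (SD, n = 2). Water with TST replicate 2 lay 2.00 under the median of the other 7 arrays, which spanned 0.61. Pcdh8, known from rat neurons as an activity-induced protein that draws N-cadherin into the cell, read 8.64 and 6.57 in water with TST, 8.27 and 8.62 with low-dose RE, 8.22 and 7.94 with high-dose RE, and 7.85 and 8.14 in water without TST. Pcdh17, a protein of synapses in corticobasal circuits of the mouse, read 11.67 and 10.52 in water with TST, 11.78 and 11.38 with low-dose RE, 12.00 and 11.59 with high-dose RE, and 11.61 and 11.98 in water without TST. Both genes repeated the picture of Pcdh10, with 1 low array in water with TST and the other array of that group inside the range of the remaining groups or, for Pcdh8, just above it. Pcdh18 was the exception in size: it read 6.64 and 6.42 in water with TST, 6.76 and 6.69 with low-dose RE, 6.96 and 6.79 with high-dose RE, and 6.66 and 6.94 in water without TST. Its 8 arrays spanned 0.54, the narrowest of the non-clustered genes, and both arrays of water with TST were the lowest.

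The delta1 proteins carry a cytoplasmic motif that binds protein phosphatase 1. Pcdh1, known also as an entry receptor of New World hantaviruses, read 13.58 and 11.34 in water with TST, 13.45 and 13.16 with low-dose RE, 13.09 and 13.33 with high-dose RE, and 12.81 and 12.99 in water without TST. Water with TST held both its highest and its lowest array, 2.24 apart. Pcdh7, a delta1 gene of neurons, read 13.44 and 11.77 in water with TST, 13.67 and 13.52 with low-dose RE, 13.61 and 13.61 with high-dose RE, and 13.27 and 12.81 in water without TST. All 4 arrays of the RE groups lay above all 4 arrays of the water groups for Pcdh7, with the nearest at 13.52 and 13.44. This was picked after the values were seen, and the share of all rows with that pattern was not computed. The thalamic marker list divided the arrays in the same way, with mean deviations of 0.967, 0.503, 0.402 and 0.648 on the RE arrays, against -0.06 and -1.47 in water with TST and -0.575 and -0.42 in water without TST. In each RE comparison 6 of 6 thalamic genes were apart and higher, against 13.1% (low dose) and 15.3% (high dose) of all rows. The study's threshold was passed by 5 at the low and 4 at the high dose, against 3.54% and 3.17% of all rows. The comparisons share the water with TST arrays. Their part in the Pcdh7 values was not tested. Pcdh9, also delta1, read 12.15 and 10.75 in water with TST, 11.89 and 11.41 with low-dose RE, 11.89 and 11.95 with high-dose RE, and 11.81 and 11.70 in water without TST. The X-linked Pcdh11x read 9.72 and 8.49 in water with TST, 9.63 and 9.83 with low-dose RE, 8.92 and 9.54 with high-dose RE, and 9.48 and 9.63 in water without TST. For Pcdh11x high-dose replicate 1 was the next lowest array, at 8.92.

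Of the remaining non-clustered genes, Pcdh12, an adhesion protein of endothelial cells, read 5.74 and 5.45 in water with TST, 5.80 and 6.20 with low-dose RE, 5.66 and 5.73 with high-dose RE, and 5.83 and 6.33 in water without TST. The 5 endothelial markers moved little beside it, with mean deviations of -0.102 to 0.102 over the arrays. Pcdh20 read 8.17 and 7.65 in water with TST, 8.14 and 7.91 with low-dose RE, 8.20 and 8.37 with high-dose RE, and 8.30 and 7.95 in water without TST. Both had narrower ranges than any delta1 gene, 0.88 and 0.72, with water with TST replicate 2 again lowest.

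**Figure D3:**
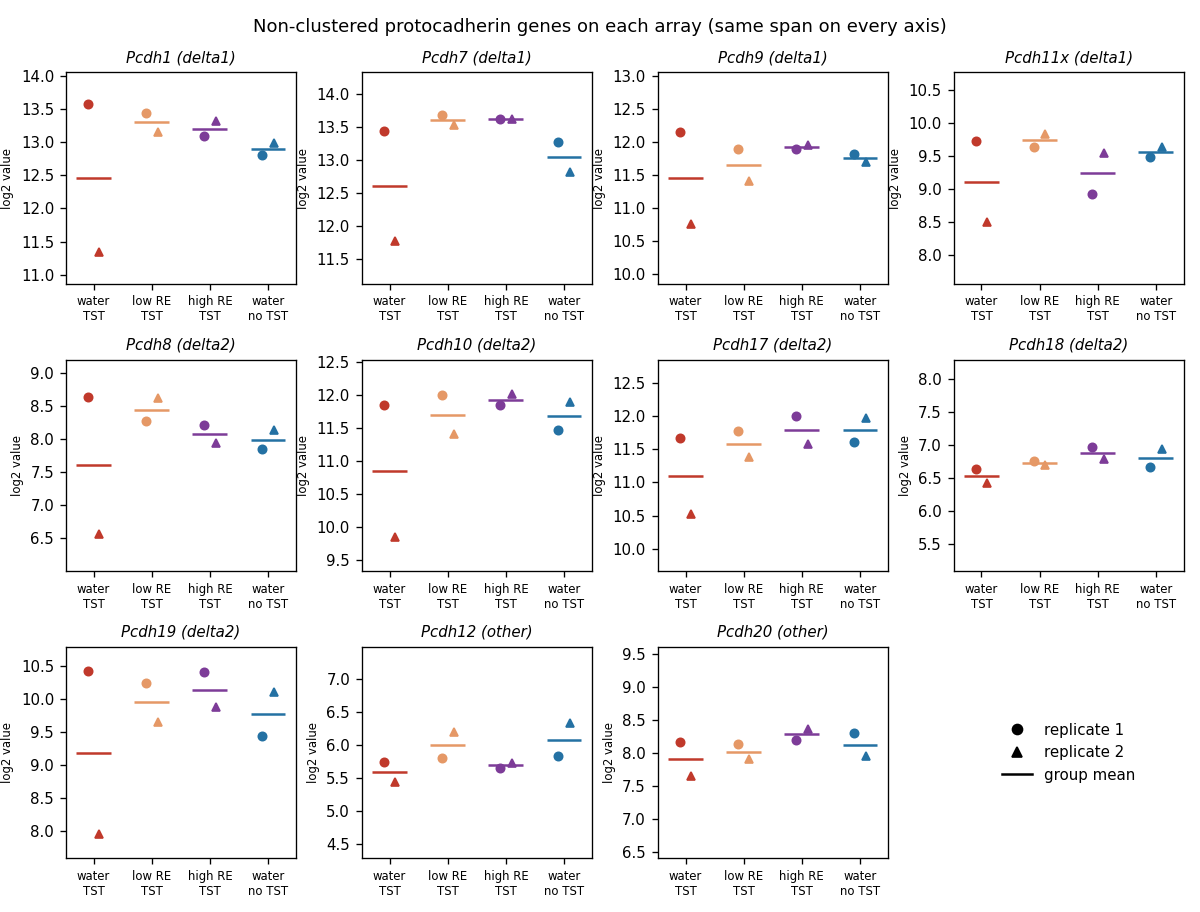
Each panel plots the log2 value (vertical axis, the same span in every panel) of 1 non-clustered gene on the arrays of the 4 groups (horizontal axis), with the group mean as a bar. The triangle of water with TST lies below every other point in all 11 panels, by the most for Pcdh19 and Pcdh10.

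Across the class, 11 of 11 non-clustered genes were lowest on water with TST replicate 2, where 20.7% of all rows were lowest, and replicate 1 of that group exceeded replicate 2 in 11 of 11, with a median gap of 1.40. The gap was over 1 for 8 of the 11 genes, against 12.7% of all rows. In the other groups no non-clustered gene had a gap over 1, and their median gaps were 0.23 with low-dose RE, -0.06 with high-dose RE and -0.28 in water without TST. Water without TST replicate 1, the other array with high cerebellar markers, stood at a mean deviation of -0.029 for these genes, against -1.098 on water with TST replicate 2 and 0.085 to 0.29 on the other 6. Because these are samples of whole tissue, fewer cells of a type and less RNA per cell cannot be told apart.

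The beta genes, each a single large exon on chromosome 18, form the cluster between the alpha and gamma clusters. They are close paralogues, and whether the probes separate them was not tested. Pcdhb4, among the 3 beta genes with the highest means, read 9.59 and 9.33 in water with TST, 9.77 and 9.46 with low-dose RE, 9.65 and 10.22 with high-dose RE, and 9.21 and 9.55 in water without TST. Pcdhb8, another of these 3, read 9.72 and 9.72 in water with TST, 9.90 and 10.04 with low-dose RE, 9.77 and 9.98 with high-dose RE, and 9.53 and 9.56 in water without TST. For Pcdhb8 all 6 arrays with TST lay above both arrays without it, a pattern picked after the values were seen. The share of all rows with that pattern was not computed. For Pcdhb8 the unadjusted p (limma) was 0.444 for TST and 0.294 over the 4 groups. Pcdhb17, the third of these 3 beta genes, read 9.32 and 9.21 in water with TST, 9.26 and 8.80 with low-dose RE, 9.28 and 9.65 with high-dose RE, and 9.45 and 9.46 in water without TST. Pcdhb1, the most 5′ beta gene, had the lowest mean: it read 4.01 and 3.67 in water with TST, 3.80 and 4.30 with low-dose RE, 3.62 and 4.14 with high-dose RE, and 3.77 and 4.00 in water without TST. All 8 of its values lay below 5.62, the lower quartile of all values, and no detection call comes with the table.

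Beta genes differed in how far they varied. Pcdhb3 had the widest range, 1.67, and read 8.72 and 7.38 in water with TST, 8.76 and 8.32 with low-dose RE, 8.09 and 9.05 with high-dose RE, and 8.01 and 7.99 in water without TST. Pcdhb14 had the narrowest, 0.41, and read 8.85 and 8.75 in water with TST, 8.75 and 8.61 with low-dose RE, 8.72 and 8.79 with high-dose RE, and 8.82 and 9.02 in water without TST. Pcdhb3, Pcdhb6, Pcdhb10 and Pcdhb13, 4 of the 20, were lowest on water with TST replicate 2, a share near the 20.7% of all rows. The mean deviation of the class on that array was -0.201, and the highest means were 0.308 on low-dose RE replicate 1 and 0.229 on water with TST replicate 1.

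The difference between the arrays of a group changed along the cluster. In water with TST, replicate 1 minus replicate 2 lay between 0.00 and 1.49 for the first 13 genes in chromosomal order, Pcdhb1 to Pcdhb13, and exceeded 1 for 5 of them (Pcdhb2, Pcdhb3, Pcdhb6, Pcdhb10 and Pcdhb13). For the last 7, Pcdhb14 to Pcdhb20, it lay between 0.02 and 0.11. With low-dose RE the same 7 genes were all higher on replicate 1, by 0.14 to 1.19 with a median of 0.61, while the first 13 had a median of 0.31 and a lowest gap of -0.50. Pcdhb16 had the widest gap of the 7, with 9.30 and 8.11 under low-dose RE, and it read 9.48 and 9.41 in water with TST, 8.70 and 8.35 with high-dose RE, and 9.05 and 8.28 in water without TST. The split after Pcdhb13 and the gene Pcdhb16 were chosen after the values were seen. The split has no test, and the p-values and calls given below for Pcdhb16 do not allow for that choice.

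**Figure D4:**
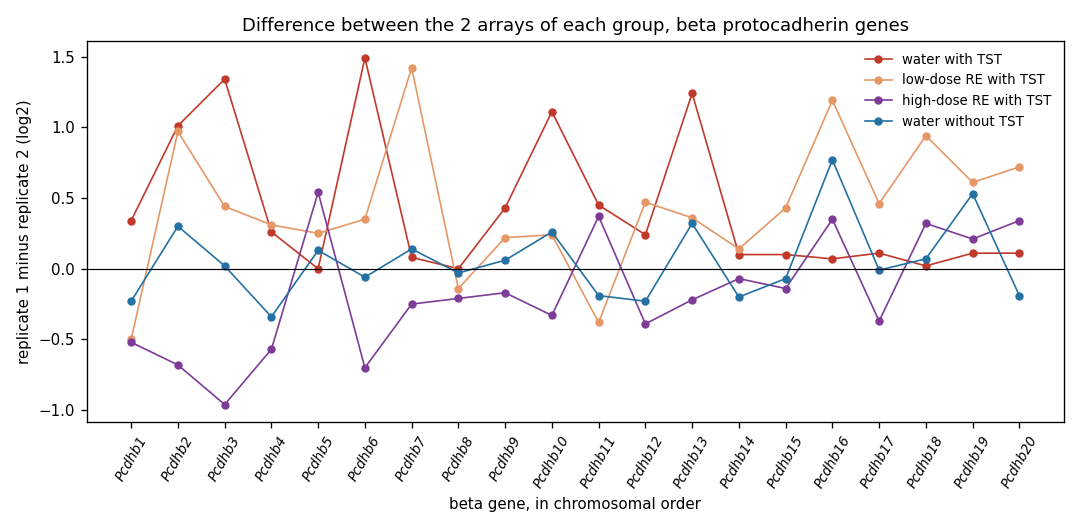
The vertical axis gives replicate 1 minus replicate 2 in log2 units for each beta gene (horizontal axis, chromosomal order), with 1 line for each group. The water with TST line reaches 1.49 at Pcdhb6 and stays within 0.02 to 0.11 from Pcdhb14 on, where the low-dose RE line lies at 0.14 to 1.19.

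The first comparison asks what TST does in mice on water. No protocadherin gene passed the study's threshold, a fold above 1.2 with an unadjusted p under 0.05 (limma), 0 of 31 against 2.55% of all rows. At an adjusted p under 0.05 (limma) there were 0 of 31, with 0.0% of all rows, and an unadjusted p under 0.05 was likewise reached by 0. The study's own test, a one-way analysis of variance on the groups compared, called 1, Pcdhb18, against 2.72% of all rows, and Pcdhb18 read 8.67 and 8.65 in water with TST, against 8.40 and 8.33 in water without TST. All 11 non-clustered genes had lower means in water with TST than in water without it, where 50.2% of all rows were higher, and their median difference was -0.44 against 0.005 over all rows. The widest differences were those of Pcdh10 at -0.83 (SE 0.56), Pcdh17 at -0.70 (SE 0.39) and Pcdh19 at -0.59 (SE 0.69). Groups did not overlap for 2 of the 11, Pcdh12 at -0.49 (SE 0.27) and Pcdh18 at -0.27 (SE 0.23), where 13.3% of all rows were apart and lower. Without water with TST replicate 2, 8 of the 11 were higher and the median was 0.18. Without replicate 1 of that group all 11 were lower with a median of -1.27, and 8 passed the study's threshold, in a fit where 16.7% of all rows passed.

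Beta genes were split evenly in the same comparison, 10 higher and 10 lower, with a median of 0.01. Both arrays of water with TST lay above both of water without TST for 6 of 20 genes (Pcdhb8, Pcdhb11, Pcdhb15, Pcdhb16, Pcdhb18 and Pcdhb19), against 14.2% of all rows, and below them for 3 (Pcdhb5, Pcdhb7 and Pcdhb17), against 13.3%. Pcdhb16 had the widest difference, 0.78 (SE 0.42), and Pcdhb11 was next at 0.62 (SE 0.27). Pcdhb11 read 8.34 and 7.89 in water with TST, against 7.40 and 7.59 in water without TST. Neither passed, with unadjusted p of 0.0956 and 0.052 (limma).

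**Figure D5:**
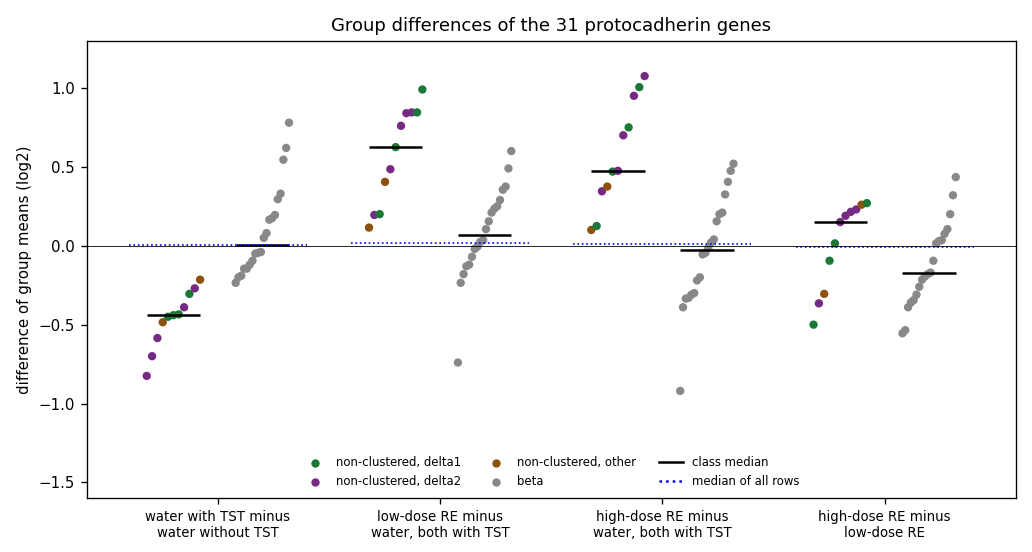
The vertical axis gives differences of group means in log2 units for the 31 genes in 4 comparisons (horizontal axis), with bars at class medians and dotted lines at the median of all rows. Non-clustered genes lie at a median of -0.44 in the TST comparison and at 0.63 and 0.48 in the RE comparisons, all of which use the water with TST arrays, and at 0.15 between doses.

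The second pair of comparisons sets each RE dose against water, both with TST. They share the water with TST arrays with each other and with the TST comparison. At the low dose 0 of 31 genes passed the study's threshold, against 3.54% of all rows, 0 reached an unadjusted p under 0.05 (limma), and the analysis of variance called 0, against 2.19% of all rows. At an adjusted p under 0.05 (limma) there were again 0, with 0.0% of all rows. All 11 non-clustered genes had higher means with low-dose RE, where 51.9% of all rows were higher, with a median of 0.63 against 0.02 over all rows. Pcdh7 stood 0.99 (SE 0.48) higher with an unadjusted p of 0.0694 (limma), and Pcdh1 and Pcdh10 stood 0.85 higher (SE 0.60 and 0.56). Pcdh7 read 13.67 and 13.52 with low-dose RE, against 13.44 and 11.77 in water with TST, where replicate 2 was the low array. Groups did not overlap for Pcdh7, Pcdh12 and Pcdh18, 3 of 11, against 13.1% of all rows apart and higher. Without water with TST replicate 2 the median was -0.15 and 4 of the 11 were higher, and for Pcdh19 the difference became -0.48.

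Beta genes at the low dose were higher in 12 and lower in 8 of 20, with a median of 0.07. Groups were apart and higher for Pcdhb8, Pcdhb12 and Pcdhb15, 3 of 20 against 13.1% of all rows, and apart and lower for Pcdhb16, 1 of 20 against 11.9%. Pcdhb16 lay 0.74 lower with low-dose RE (-0.74, SE 0.42), and Pcdhb7 lay 0.60 higher (SE 0.41) through 1 array: it read 7.94 and 6.52 with low-dose RE, against 6.67 and 6.59 in water with TST.

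At the high dose 0 of 31 genes passed the study's threshold, against 3.17% of all rows, 0 reached an unadjusted p under 0.05 (limma), and the analysis of variance called 1, Pcdhb16, against 2.92% of all rows. At an adjusted p under 0.05 (limma) there were 0, with 0.0% of all rows. All 11 non-clustered genes were again higher than in water with TST, where 51.2% of all rows were higher, with a median of 0.48 against 0.01 over all rows. Pcdh10 stood 1.08 (SE 0.56) higher, Pcdh7 1.01 (SE 0.48) and Pcdh19 0.95 (SE 0.69). Pcdh7 read 13.61 and 13.61 with high-dose RE, against 13.44 and 11.77 in water with TST. Groups did not overlap for Pcdh7, Pcdh18 and Pcdh20, 3 of 11 against 15.3% of all rows. Without water with TST replicate 2 the median was -0.05 and 5 of the 11 were higher, and for Pcdh1 the difference became -0.37.

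Among beta genes at the high dose 9 were higher and 11 lower, with a median of -0.03. Groups were apart and lower for Pcdhb15, Pcdhb16, Pcdhb18, Pcdhb19 and Pcdhb20, 5 of 20 against 15.2% of all rows, and these all lie at the 3′ end of the cluster. Groups were apart and higher for Pcdhb4, Pcdhb7 and Pcdhb8, 3 of 20 against 15.3%. Pcdhb16 had the widest difference, -0.92 (SE 0.42), with an unadjusted p of 0.0563 (limma). Its arrays read 8.70 and 8.35 with high-dose RE, against 9.48 and 9.41 in water with TST, and 9.05 and 8.28 in water without TST, which lay within the range of the RE arrays. For the last 7 genes of the cluster, a set chosen after the values were seen, the median difference was -0.33. It was -0.34 without water with TST replicate 2 and -0.28 without replicate 1 of that group. The set was split off where the water with TST arrays nearly agree, with gaps of 0.02 to 0.11. Leaving out either of those arrays could therefore hardly move the median, and these 2 values are no check of it. Without high-dose replicate 1 the median difference was -0.49, and without high-dose replicate 2 it was -0.17.

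The last comparison sets the high against the low dose. Its differences come from 4 arrays without high cerebellar markers, and its standard errors from the fit of all 8. Pcdhb15 was the 1 gene of 31 past the study's threshold, where 1.91% of all rows were, and 0 passed at an adjusted p under 0.05 (limma), with 0.0% of all rows. Pcdhb15 read 8.97 and 9.11 with high-dose RE, against 9.81 and 9.38 with low-dose RE. Its arrays did not overlap, and it fell by 0.56 (SE 0.24, unadjusted p 0.047 by limma). The high-dose values lay close to those of water without TST, 9.04 and 9.11, and low-dose replicate 1 was the highest of the 8 arrays. Without that array the difference was -0.34 and did not pass. It did not pass either without high-dose replicate 1 (-0.49), without high-dose replicate 2 (-0.63), or without either array of water without TST, where the difference stayed at -0.56 and the unadjusted p was 0.071 (limma). With both cerebellar-high arrays left out 0 genes passed. The analysis of variance called 0 genes in this comparison, against 2.52% of all rows.

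Groups were apart and lower at the high dose for 4 of 20 beta genes (Pcdhb9, Pcdhb10, Pcdhb11 and Pcdhb15), against 13.7% of all rows, and apart and higher for 1, Pcdhb17, against 12.9%. Of the 11 non-clustered genes 7 were higher, where 48.9% of all rows were, and 4 lower, with a median of 0.15 against -0.01 over all rows. Pcdh18 and Pcdh20 were apart and higher, and Pcdh8, Pcdh11x and Pcdh12 apart and lower. Pcdh11x had the widest difference of the class, -0.50 (SE 0.40), and for no non-clustered gene did the groups' difference reach the threshold. Over all 4 groups at once, the moderated F-test (limma) gave 0 of 31 genes at an unadjusted p under 0.05, where 1.82% of all rows passed, and the analysis of variance gave 1, Pcdhb8, where 3.22% of all rows passed.

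Genes related to protocadherins by function or by family were read from 3 lists. Of 16 regulators of promoter choice and chromatin at the clustered genes, such as Ctcf and the cohesin subunit Rad21, 15 were measured, and 0 passed the study's threshold in any of the 4 comparisons. Their means were higher for 13 of 15 in water with TST than in water without TST (median 0.21), where 50.2% of all rows were higher. They were lower for 13 of 15 with low-dose RE (median -0.24) and for 13 of 15 with high-dose RE (median -0.29) than in water with TST, where 51.9% and 51.2% of all rows were higher, and lower for 9 of 15 at the high than at the low dose (median -0.07), where 48.9% were higher. Water with TST replicate 2 was the highest array for 8 of the 15, where 23.0% of all rows were highest. The list's mean deviation was 0.336 on that array and 0.021 on replicate 1 of the same group. It was 0.172 and -0.191 in water without TST, 0.041 and -0.172 with low-dose RE, and -0.085 and -0.121 with high-dose RE. The TST and both RE comparisons use water with TST replicate 2, and the counts without it are not given here. The cerebellar marker values of that array are given above, and their part in these counts was not tested.

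Of 21 intracellular partners and processing enzymes, 18 were measured and 1 passed, in the dose comparison, where 1.91% of all rows did. Their mean deviation on water with TST replicate 2 was -0.619, with 10 of 18 lowest there, against 20.7% of all rows. This was Psen2, a catalytic subunit of gamma-secretase, which cleaves clustered protocadherins after shedding. It read 7.14 and 7.15 with high-dose RE, against 6.70 and 6.22 with low-dose RE, and rose by 0.69 (SE 0.25) at the study's threshold. Without low-dose replicate 2 the difference was 0.45, and without either high-dose array it was 0.68 or 0.69, and none of these passed. Of 45 other cadherin superfamily genes, 43 were measured, and 2 passed in the TST comparison, 2 in each RE comparison and 0 between doses, where 2.55%, 3.54% (low dose), 3.17% (high dose) and 1.91% of all rows passed. The numbered Cdh genes of this list were taken from the symbols named on the array, so 43 of 45 is not the coverage of a fixed list. Among the 43, 1 gene, Fat2, is also in the granule cell list. Clstn3, a calsyntenin of synapses, read 11.94 and 12.93 in water with TST, against 11.55 and 11.63 in water without TST, and rose by 0.85, but without water with TST replicate 2 the difference was 0.35 and did not pass. It also did not pass without either array of water without TST (0.81 and 0.89) or either high-dose array (0.85). Cdh23, a cadherin of hair cell tip links in the inner ear, read 6.82 and 7.24 in water with TST, 6.28 and 5.78 with low-dose RE, 6.25 and 5.71 with high-dose RE, and 6.35 and 6.18 in water without TST. Cdh23 rose by 0.77 with TST, and fell by 1.00 and by 1.05 with low-dose and high-dose RE. Without water with TST replicate 2 its RE differences were -0.79 and -0.84 and still passed, while the TST difference, 0.56, did not. With both cerebellar-high arrays left out, the RE differences had the same size and did not pass, with unadjusted p of 0.0683 at the low and 0.056 at the high dose (limma). The TST difference also did not pass without either array of water without TST (0.85 and 0.68), nor the low-dose difference without low-dose replicate 2 (-0.75), nor the high-dose difference without high-dose replicate 2 (-0.78). Cdh22, a classical cadherin of brain, read 7.51 and 7.66 with low-dose RE and 7.47 and 7.39 with high-dose RE, against 8.18 and 8.68 in water with TST. It fell by 0.85 at the low and by 1.00 at the high dose, and without water with TST replicate 2 the differences were -0.60, which did not pass, and -0.75, which did. By the analysis of variance none of these Psen2, Clstn3, Cdh22 and Cdh23 differences passed.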

How the data were processed

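Clariom S arrays measured brain RNA of 8 samples in 4 groups of 2, and the sample titles gave groups and replicate numbers. The deposited values are log2 values that the authors normalized with RMA in Transcriptome Analysis Console 4.0.1, per the submitters' processing notes and design text, and they were kept as deposited. They run from 2.76 to 19.79, and 1359 exceed 16, the limit of a 16-bit scanner, so the deposited scale may be stretched. Settings of the software and the genome build of the platform are not given in the sources used here. There is no detection call, and precision is limited by the number of arrays.

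The platform annotation named 19572 of 22206 rows with 1 symbol, 0 with several, and left 2634 unnamed here, and all 31 protocadherin symbols matched the RefSeq gene table, which gave the order of the genes. Members were rows whose symbol starts with Pcdh, 1 row per gene, and classes were set by symbol. The members and gene lists were chosen with earlier results of these data known.

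In limma 3.58.1 (R 4.3.3), lmFit and eBayes fitted 4 group means to all rows and all 8 arrays, with 4 residual and 4.30 prior degrees of freedom. All p-values are two-sided and were adjusted by Benjamini-Hochberg over every row, and the median standard error was 0.292. The study's threshold combines a fold above 1.2 (a log2 difference of 0.263) and an unadjusted p under 0.05. Values on every array are given for non-clustered genes, the 3 beta genes with the highest and the 1 with the lowest mean, the widest and narrowest range of a class, and genes past the threshold, at most 8 per comparison and 3 per related list. Other beta genes with values were chosen after their values were seen. The fit was tested on simulated data. Alternatives were a replicate block, only the groups compared, another variance prior, no dim rows, quantile normalization, leaving out arrays, the study's analysis of variance, and the mean of a gene's rows. Python 3.11.15, pandas 2.3.3, numpy 2.4.6 and matplotlib 3.10.9 made the tables and figures. Promoters came from RefSeq (GRCm38.p6).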

Additional observations from a re-analysis of the deposited data

How the results depend on the processing

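With 2 arrays per group, the count of protocadherin genes past the study's threshold moved with single arrays. Leaving out 1 array at a time gave 0 to 9 genes for TST, 0 to 10 for low-dose RE, 0 to 9 for high-dose RE, 0 to 4 between doses and 0 to 8 over the 4 groups. The highest counts of the first 3 and of the last came without water with TST replicate 1, where replicate 2 stood alone for its group and was assumed to vary like the others. In that fit 16.7%, 17.0% and 17.0% of all rows passed for TST, low dose and high dose, 12.6% passed over the 4 groups, and 2.31%, 4.31% and 4.18% had an adjusted p under 0.05 in the first 3. Pcdh1, Pcdh7, Pcdh8, Pcdh9, Pcdh10, Pcdh17, Pcdh19 and Pcdhb6 then passed in all 3 comparisons with water with TST, and for Pcdh1 the adjusted p was 0.0361, 0.00977 and 0.0128 (limma) for TST, low dose and high dose. Without water with TST replicate 2 the counts were 4 (Pcdh1, Pcdhb2, Pcdhb10 and Pcdhb11), 1 (Pcdhb13) and 1 (Pcdhb10), where 3.29%, 3.49% and 3.09% of all rows passed. Between doses the median of the beta genes was 0.15 without low-dose replicate 1 and -0.335 without low-dose replicate 2, against -0.18 with all arrays. Without both arrays high in cerebellar markers the median of the non-clustered genes was 0.22 for TST, -0.145 for low dose, -0.045 for high dose and 0.15 between doses. With all arrays it was -0.44, 0.625, 0.475 and 0.15. The analysis of variance called 1, 0, 1 and 0 genes for TST, low dose, high dose and between doses, and 1 over the 4 groups. Pcdhb16 passed at the high dose, 1 gene, with only the groups compared and with quantile normalization, where 2.22% and 3.73% of all rows passed. Between doses 0 passed with only the groups compared and with the trended robust prior, where 2.39% and 1.62% of all rows passed. The Pcdh19 low-dose difference ran from -0.475 to 1.995 and the Pcdh1 high-dose difference from -0.37 to 1.87 over the fits that left out 1 array. Both were reversed without water with TST replicate 2, and at -0.475 and -0.37 without both cerebellar-high arrays. Without water with TST replicate 2, 34 of 124 differences changed sign, and 0 did under quantile normalization. The block, the fit of only the groups compared, the prior and the analysis of variance use the same differences of group means. No sign could change under them. Leaving out the dimmest 25% of rows dropped 1 gene, Pcdhb1, and kept the counts, as did the mean of a gene's rows, since each gene has 1. The fit of only the groups compared was not run over the 4 groups. The cause of these changes was not tested.

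Replicate numbers are shared across groups in the titles, but same-numbered arrays did not deviate together: the correlations of their deviations from group means lay between -0.293 and 0.169 over 6 pairs of groups, so the numbers were not used as pairs. With the replicate block 1 gene passed for TST (Pcdhb16), 1 for low dose (Pcdh7), 2 for high dose (Pcdh7 and Pcdhb16), 0 between doses and 0 over the 4 groups. Of all rows 2.24%, 3.16%, 2.85%, 1.84% and 1.51% passed in that order.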
